A study of Mus musculus with 12 samples.

Results

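The metallothioneins and the core genes of the zinc response were followed in mouse eye cups after intermittent fasting and an oxidant injury. The 5 genes (Mt1, Mt2, Mt3, Mtf1 and Slc30a1) were taken by name from the 21930 genes of the count table. They were chosen by name after earlier results on the same 12 libraries were known, so their differences are a description of these mice and their adjusted p-values are no independent evidence. All 5 genes were counted in all 12 libraries, and all 5 passed the filter on low counts in every comparison.

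The samples were 12 eye cup RNA libraries from male, wild-type C57BL/6J mice, 3 mice in each of 4 groups, with AL for feeding ad libitum and IF for intermittent fasting. In IF mice food was removed for 24 h on alternate days, for 12 weeks from 8 weeks of age, and each diet went on after the injection. AL+NaIO3 and IF+NaIO3 mice received a single intraperitoneal injection of sodium iodate (NaIO3) at 25 mg/kg, an oxidant that injures the retinal pigment epithelium (RPE) first and photoreceptors after it, whereas AL+PBS and IF+PBS mice received phosphate-buffered saline (PBS), and tissue was taken 7 days later. NaIO3 gives an acute, drug-induced injury, and all mice were of a single sex and strain.

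Metallothioneins are small, cysteine-rich proteins that bind zinc and copper and react with oxidants. Free zinc is sensed by MTF1 (gene Mtf1), a zinc-finger transcription factor that binds metal response elements in the promoters of Mt1 and Mt2 and of Slc30a1, the gene of ZnT1, which exports zinc across the plasma membrane. Mt1 and Mt2 are expressed in most tissues and are also raised by glucocorticoids, by inflammatory cytokines and by oxidants, whereas Mt3 is known mainly from the nervous system and responds little to zinc. The retina and RPE are rich in zinc.

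The 3 metallothionein genes lie side by side on the forward strand of chromosome 8, in the coordinates of the count table, which match the mouse build GRCm38. Mt1 (ENSMUSG00000031765) was at chr8:94179082-94180327, Mt2 (ENSMUSG00000031762) at chr8:94172664-94173568 and Mt3 (ENSMUSG00000031760) at chr8:94152607-94154146. Between Mt2 and Mt1 lay 5513 bases, and 18517 bases between Mt3 and Mt2. The fourth gene of the cluster, Mt4, known from stratified epithelium, had 0 counts in all 12 libraries, at floors of 3 counts between 0.0697 and 0.114 CPM, the read count scaled to a common library size. Mtf1 (ENSMUSG00000028890) was at chr4:124802104-124849800 and overlapped the gene 1110065P20Rik, so its count is uncertain. Slc30a1 (ENSMUSG00000037434) was at chr1:191906767-191913247.

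The promoters are shown because 1 of the 2 neighbouring genes, Mt2, was called after NaIO3 and the other, Mt1, was not, and because Slc30a1 is held to answer to the same factor. Each line gives the 250 bases before the gene start of RefSeq (GRCm38.p6, forward strand), at chr8:94178839-94179088 for Mt1, chr8:94172368-94172617 for Mt2 and chr1:191906531-191906780 for Slc30a1. Capitals mark the letters of the metal response element core (TGCACNC or TGCGCNC, searched on both strands).
Mt1: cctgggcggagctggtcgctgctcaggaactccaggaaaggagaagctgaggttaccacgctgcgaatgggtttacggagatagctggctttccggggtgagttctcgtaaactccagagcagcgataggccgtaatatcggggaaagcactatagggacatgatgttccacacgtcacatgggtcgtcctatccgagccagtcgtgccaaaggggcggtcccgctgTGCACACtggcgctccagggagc
Mt2: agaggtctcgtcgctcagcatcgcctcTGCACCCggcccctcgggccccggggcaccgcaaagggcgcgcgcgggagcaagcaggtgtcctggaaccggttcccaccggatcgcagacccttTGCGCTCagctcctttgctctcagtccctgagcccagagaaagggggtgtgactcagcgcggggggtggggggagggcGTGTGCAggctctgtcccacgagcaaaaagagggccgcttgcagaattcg
Slc30a1: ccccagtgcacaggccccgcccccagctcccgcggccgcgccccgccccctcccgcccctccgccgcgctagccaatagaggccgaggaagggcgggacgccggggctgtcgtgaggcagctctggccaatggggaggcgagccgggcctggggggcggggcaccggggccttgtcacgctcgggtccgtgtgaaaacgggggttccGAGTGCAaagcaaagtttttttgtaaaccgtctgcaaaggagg
The search window also took in the 50 bases from the annotated gene start onward, which are not printed. The RefSeq starts were not checked against reads. The number of matches in each gene, and any difference between Mt1 and Mt2, therefore depends on where the window was placed. In that 300-base window Mt2 held 4 matches, with first letters at -223, -128, -50 and 5 from the gene start. Mt1 held 3 matches, at -23, 3 and 21, and Slc30a1 held 2, at -43 and 31. Mt3 held 1 match at 28 and Mtf1 held 0. Among 32851 mouse promoters of this length 25.7% held at least 1 match, 7.11% at least 2, 1.97% at least 3 and 0.517% at least 4. The core of the antioxidant response element (TGACNNNGC) had 1 match in Mt2, at -79, and 1 in Slc30a1, at -82, and in 12.4% of all promoters. Letters of a STAT site (TTCNNNGAA) were in none of the 5 windows and in 8.3% of all promoters. The letters AGAACA, bound by the glucocorticoid receptor, were in the window of Mtf1 alone among the 5, and in 19% of all promoters. A match of letters is not a binding site, and no match says only that these letters are not in this window.

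Library totals were between 26364665 and 43046950 counts (median 31822705), and the CPM below are scaled by TMM factors between 0.934 and 1.14. The labels call the tissue a complex of RPE, choroid and sclera, whereas photoreceptor markers summed to 17133 to 56171 CPM over the 12 libraries, against 589 to 2207 CPM for RPE markers, so retina was part of the sample. AL+NaIO3 replicate 3 stood apart, with the lowest photoreceptor sum (17133 CPM) and a sum of 1244 CPM for choroid and sclera stroma, against at most 190.1 CPM elsewhere. The eye cup is a bulk sample, in which fewer cells of a type and less RNA per cell cannot be told apart.

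By FPKM, the unit that divides by gene length, Mt1 was the most abundant of the 5 genes in every library, between 102 and 205 (median 137). Mt2 lay between 41.3 and 165 FPKM (median 59.1) and Mt3 between 22.3 and 51.9 FPKM (median 34.6). The zinc sensor and the exporter were far lower, Mtf1 between 6.89 and 9.35 FPKM (median 8.21) and Slc30a1 between 1.98 and 5.03 FPKM (median 2.97). Mt2 varied most between libraries, with the highest CPM 3.36 times the lowest. The ratio was 2.71 for Mt3, 2.18 for Slc30a1, 1.89 for Mt1 and 1.60 for Mtf1.

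**Figure D1:**
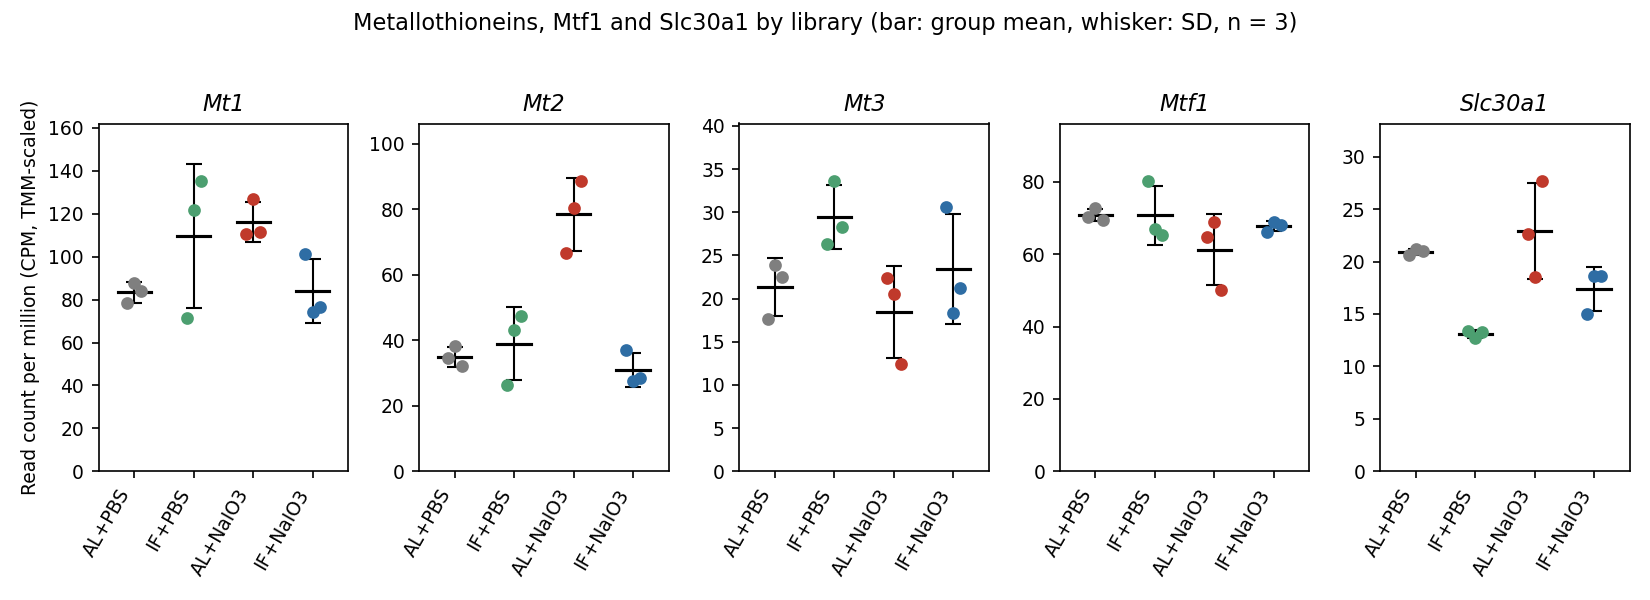
Scaled read counts (CPM, vertical axis, from 0 and scaled separately for each gene) of the 5 genes in each library, with points for the 3 mice of a group, a bar for the mean and whiskers for the SD. The 3 AL+NaIO3 libraries lie above the other 9 for Mt2 (lowest 66.6 CPM), and the 3 IF+PBS libraries lie below the other 9 for Slc30a1 (highest 13.4 CPM).

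The first question was how NaIO3 changed these genes in freely fed mice. Mt2 rose 2.26-fold in AL+NaIO3 over AL+PBS, Mt1 lay 1.40-fold higher without passing the test, and Mt3, Mtf1 and Slc30a1 differed by at most 1.15-fold. Mt2, an inducible metallothionein, read 34.5, 38.2 and 32.1 CPM in AL+PBS replicates 1 to 3 (35.0 ± 3.07, mean ± SD, n = 3) and 66.6, 80.3 and 88.5 CPM in AL+NaIO3 (78.5 ± 11.1, n = 3). Every AL+NaIO3 mouse was above every AL+PBS mouse. The fitted log2 fold change was 1.18 ± 0.14 (SE, 95% interval 0.85 to 1.51), with an adjusted p of 0.0493 by edgeR's quasi-likelihood test, rank 12 by p among 15612 genes.

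Calls required a fold change of 1.5 or more together with an adjusted p below 0.05, and adjusted p-values are Benjamini-Hochberg values over all genes tested. Of the 5 genes 1 was called, Mt2, where 0.0769% of all genes tested were called. At an unadjusted p under 0.05 there were 2 of the 5 (Mt1 and Mt2), as there were 1599 of all 15612 genes, and DESeq2 called Mt2 alone of the 5 and 411 of 15579 genes. The edgeR call stood close to the threshold. Without AL+NaIO3 replicate 3 the log2 fold change of Mt2 was 1.07 (adjusted p = 0.0127, edgeR), where 90 of 15731 genes were called. In a fit of all 12 libraries, in which 1.11% of genes were called, it was 1.17 (adjusted p = 0.0197, edgeR). The call was lost when any AL+PBS library was left out (adjusted p = 0.338, 0.329 and 0.408 without replicates 1, 2 and 3), settings in which no gene was called, and without AL+NaIO3 replicate 2 (adjusted p = 0.188). It was lost too with library totals alone in place of TMM scaling (log2 fold change 1.27, adjusted p = 0.113, edgeR), where 4 of 15612 genes were called. With the replicate number as a block it was also lost (1.17, adjusted p = 0.0640, edgeR). That setting called 28 of 15612 genes, against 12 in the main fit. The log2 fold change of Mt2 stayed between 1.07 and 1.28 over all alternatives.

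Mt1, its neighbour with the same inducers, was not called. It read 78.3, 88.0 and 83.8 CPM in AL+PBS (83.4 ± 4.82, n = 3) and 110.4, 127 and 111 CPM in AL+NaIO3 (116 ± 9.25, n = 3). The groups did not overlap, but the log2 fold change of 0.49 ± 0.11 (SE, 95% interval 0.23 to 0.75) had an adjusted p of 0.242 in edgeR. With DESeq2 its adjusted p was 0.00985, at a log2 fold change of 0.49 that is under the 1.5-fold limit. Mt3, the neural metallothionein, read 17.6, 23.9 and 22.5 CPM in AL+PBS and 22.4, 20.5 and 12.4 CPM in AL+NaIO3, groups that overlapped. Its lowest value was AL+NaIO3 replicate 3, and its log2 fold change of -0.20 ± 0.24 (SE, adjusted p = 0.816, edgeR) was 0.01 without that library.

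Neither the zinc sensor nor the exporter was called. Mtf1, the sensor, read 70.3, 72.8 and 69.4 CPM in AL+PBS and 64.8, 68.9 and 50.1 CPM in AL+NaIO3, with every AL+NaIO3 mouse lower by CPM, and its log2 fold change of -0.20 ± 0.13 (SE) had an adjusted p of 0.648 in edgeR. By FPKM the groups of Mtf1 overlapped. Slc30a1, the zinc exporter, read 20.6, 21.2 and 21.0 CPM in AL+PBS and 22.6, 18.5 and 27.6 CPM in AL+NaIO3. These groups overlapped, and the log2 fold change of 0.14 ± 0.18 (SE, adjusted p = 0.826, edgeR) turned to -0.03 without replicate 3. In this comparison 3 of the 5 genes (Mt1, Mt2 and Mtf1) had groups that did not overlap, as did 18.3% of all genes tested. The median log2 fold change was 0.14 over the 5 genes and 0.01 over all genes tested.

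Markers of other cells differed too, in a comparison where 18.3% of all genes tested had groups without overlap, either way. All 7 macrophage and microglia markers were higher in AL+NaIO3 than in AL+PBS without overlap, with a summed level of 85.2 to 233 CPM against 41.6 to 44.4 CPM, and 0 of the 7 were called in the 6-library fit against 4 in the 12-library fit, which called 1.11% of all genes. Of the 6 RPE markers 5 were lower without overlap, with a sum of 589 to 748 CPM against 1447 to 1637 CPM. The 8 Müller cell and astrocyte markers, glia in which metallothioneins are known to be expressed, summed to 4051 to 5078 CPM against 4264 to 4783 CPM, with 4 higher and 1 lower without overlap, among them Gfap, the intermediate filament of reactive glia, at a log2 fold change of 3.34 (adjusted p = 0.0873, edgeR). Of the 5 neutrophil markers 3 were tested, all 3 with log2 fold changes above 0, and 1, Csf3r, was higher without overlap. Their sum was 18.6 to 21.0 CPM against 13.9 to 17.5 CPM, and Ly6g was at 0 counts in both groups. Of the 4 endothelial markers 2 were higher without overlap, and the sum was 212 to 420 CPM against 181 to 192 CPM. Of 8 photoreceptor markers 2 had log2 fold changes above 0, and all 5 stroma markers did (median 1.62), with 0 of either list without overlap. The 12-library fit also called Gfap and Vim higher and Rpe65, Rgr, Rdh5 and the lens gene Cryaa lower. The 4 lens markers, of which 2 were tested, summed to at most 0.898 CPM in AL+NaIO3. In AL+PBS replicates 1 to 3 they summed to 3.62, 171 and 3.06 CPM. The part of these cells in the level of Mt2 was not tested.

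**Figure D2:**
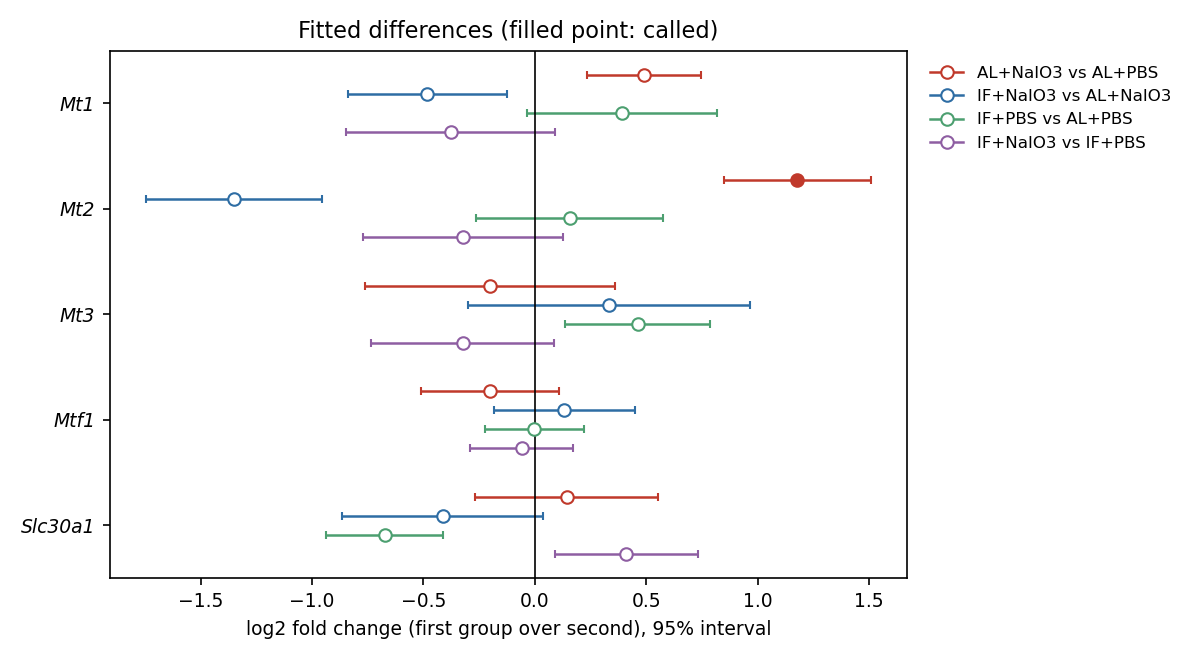
Fitted log2 fold change (horizontal axis, first group over second) of the 5 genes in the 4 pairwise comparisons, with points for the edgeR estimate and whiskers for its 95% interval; a filled point marks a called gene. The only filled point is Mt2 in AL+NaIO3 over AL+PBS (1.18), and the point farthest to the left is Mt2 in IF+NaIO3 over AL+NaIO3 (-1.35).

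The second question was whether fasting changed the response to NaIO3. In IF+NaIO3 mice Mt2 was 2.55-fold lower than in AL+NaIO3 mice, and Mt1 1.40-fold lower, but neither was called by edgeR in the 6-library fit. Mt2 read 66.6, 80.3 and 88.5 CPM in AL+NaIO3 and 37.1, 27.6 and 28.5 CPM in IF+NaIO3 (31.0 ± 5.23, n = 3). The groups were far apart, and the IF+NaIO3 mice lay in the range of the mice that had received PBS (26.3 to 47.6 CPM). The log2 fold change was -1.35 ± 0.17 (SE, 95% interval -1.75 to -0.96), with an adjusted p of 0.0614 in edgeR, rank 11 by p among 15648 genes.

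Of the 5 genes 0 were called by edgeR in the 6-library fit, where 0.0383% of all genes tested were called, and 2 of them (Mt1 and Mt2) had an unadjusted p under 0.05, as had 1828 of all 15648. DESeq2 called 1, Mt2, with an adjusted p of 7.89e-09, where it called 478 of 15623 genes. The 12-library fit called Mt2 too, at an adjusted p of 0.00870, where 1.19% of genes were called. Without AL+NaIO3 replicate 3 its log2 fold change was -1.25 in the pairwise fit (adjusted p = 0.0133, edgeR), which passed, as did 75 of 15740 genes. Over all alternatives it was called in 5 of 14, with adjusted p-values between 7.89e-09 and 0.437 and log2 fold changes between -1.50 and -1.25.

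Mt1 read 110.4, 127 and 111 CPM in AL+NaIO3 and 101, 74.1 and 76.5 CPM in IF+NaIO3 (83.9 ± 15.0, n = 3). The groups did not overlap, though IF+NaIO3 replicate 1 came close, and the log2 fold change of -0.48 ± 0.15 (SE) had an adjusted p of 0.320 in edgeR. Mt3 read 22.4, 20.5 and 12.4 CPM in AL+NaIO3 and 30.6, 18.4 and 21.2 CPM in IF+NaIO3, which overlapped (log2 fold change 0.33 ± 0.28 SE, adjusted p = 0.651, edgeR). Its log2 fold change was between 0.09 and 0.50 over all alternatives. Mtf1 was 61.3 ± 9.88 CPM in AL+NaIO3 and 67.8 ± 1.48 CPM in IF+NaIO3 (mean ± SD, n = 3 each), with overlap. Slc30a1 read 22.6, 18.5 and 27.6 CPM against 15.0, 18.6 and 18.6 CPM, and AL+NaIO3 replicate 2 lay within the range of IF+NaIO3 (log2 fold change -0.41 ± 0.20 SE, adjusted p = 0.461, edgeR). For Slc30a1 the log2 fold change was -0.25 without AL+NaIO3 replicate 3 and between -0.54 and -0.25 over all alternatives. Groups of 2 of the 5 genes did not overlap, as was so for 18.9% of all genes tested, and the median log2 fold change was -0.41 over the 5 genes and -0.01 over all genes. This comparison shares the AL+NaIO3 libraries with the one above, so their opposite signs are not independent of each other.

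Of the marker lists, all 7 macrophage and microglia markers were lower in IF+NaIO3 without overlap (35.9 to 49.5 CPM in sum), Gfap stood at -3.71 (log2 fold change, adjusted p = 0.0595, edgeR), and 4 of the 8 Müller cell and astrocyte markers were lower and 1 higher without overlap, with sums that overlapped (4030 to 4135 CPM). For comparison, 18.9% of all genes tested had groups without overlap, either way. RPE markers summed to 681 to 1526 CPM, which overlapped with AL+NaIO3, with 2 of 6 higher and 1 lower without overlap. Endothelial markers, 1 of 4 lower without overlap, summed to 148 to 178 CPM, and of 3 neutrophil markers tested 1, Csf3r, was lower without overlap. Photoreceptor markers all had log2 fold changes above 0, with 2 of 8 higher without overlap, and their sums overlapped (47702 to 53733 CPM against 17133 to 56171 CPM). All 5 stroma markers had log2 fold changes below 0 (median -2.02), 0 of them without overlap, with sums of 106 to 126 CPM against 86.4 to 1244 CPM. The 12-library fit, which called 1.19% of all genes, called 4 of the 7 macrophage markers, Gfap, Vim and Sox9, and Csf3r lower. The part of these cells in the levels of Mt1 and Mt2 was not tested.

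The interaction of diet and injection compares the NaIO3 difference in IF mice with that in AL mice. For Mt2 the difference between them was -1.49 ± 0.28 on the log2 scale (SE, 95% interval -2.10 to -0.89, adjusted p = 0.0951, edgeR on 12 libraries), and for Mt1 it was -0.86 ± 0.28 (adjusted p = 0.293). It was -0.12 for Mt3, 0.15 for Mtf1 and 0.28 for Slc30a1, with adjusted p-values between 0.612 and 0.903. Of the 5 genes 0 were called by edgeR, where 0.0313% of all genes tested were called. At an unadjusted p under 0.05 there were 2, Mt1 and Mt2, as had 1910 of all 15970 genes tested, and DESeq2 called 1, Mt2 (adjusted p = 0.000337), where it called 217 of 15312 genes.

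In IF mice the mean of each metallothionein was lower after NaIO3 than after PBS, and none of these differences was called. Mt2 read 26.3, 43.0 and 47.6 CPM in IF+PBS (39.0 ± 11.2, n = 3) and 37.1, 27.6 and 28.5 CPM in IF+NaIO3. IF+PBS replicate 1 was the lowest library of all 12 for Mt2, so the groups overlapped, and the log2 fold change was -0.32 ± 0.20 (SE, adjusted p = 0.461, edgeR). Mt1 showed the same order of mice, with 71.5, 122 and 135 CPM in IF+PBS (109.5 ± 33.6, n = 3) against 101, 74.1 and 76.5 CPM, and a log2 fold change of -0.38 ± 0.21 (SE, adjusted p = 0.411, edgeR). Without IF+PBS replicate 1 Mt1 was called lower (log2 fold change -0.61, adjusted p = 0.0463, edgeR), in a fit that called 197 of 15522 genes.

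Slc30a1 went the other way. It read 13.4, 12.7 and 13.3 CPM in IF+PBS and 15.0, 18.6 and 18.6 CPM in IF+NaIO3, with no overlap, and its log2 fold change of 0.41 ± 0.14 (SE) had an adjusted p of 0.249 in edgeR. It was the only gene of the 5 without overlap here, against 20.9% of all genes tested, and the only one of the 5 with an unadjusted p under 0.05, as had 2326 of all 15305 genes tested. RPE markers, 4 of 6 lower without overlap, summed to 1721 to 2207 CPM in IF+PBS and 681 to 1526 CPM in IF+NaIO3, and erythrocyte markers, 4 of 5 higher without overlap, to 41.8 to 57.3 CPM and 72.1 to 98.3 CPM. Stroma markers, 1 of 5 higher without overlap, summed to 55.6 to 100.4 CPM and 106 to 126 CPM. Of the 8 Müller cell and astrocyte markers 1 was higher and 1 lower without overlap, and 3 had log2 fold changes above 0 (median -0.04). Their sums overlapped (4011 to 4099 CPM in IF+PBS and 4030 to 4135 CPM in IF+NaIO3). Among them Aqp4, a water channel of Müller cells, was 123 to 147 CPM in IF+PBS and 151 to 203 CPM in IF+NaIO3. The part of these cells in the level of Slc30a1 was not tested. The log2 fold change was -0.32 ± 0.19 (SE) for Mt3 and -0.06 ± 0.10 (SE) for Mtf1. In this comparison 0 of the 5 genes and 0% of all genes tested were called by edgeR, and DESeq2 called 0 of the 5 and 72 of 9964 genes. The median log2 fold change was -0.32 over the 5 genes and 0.00 over all genes tested.

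The remaining comparison was fasting without injury. Slc30a1 was 1.60-fold lower in IF+PBS than in AL+PBS, in every mouse, and Mt3 1.38-fold higher, but neither was called by edgeR. Slc30a1 read 20.6, 21.2 and 21.0 CPM in AL+PBS (20.9 ± 0.290, n = 3) and 13.4, 12.7 and 13.3 CPM in IF+PBS (13.1 ± 0.371, n = 3). The 2 groups were narrow and well apart, with a log2 fold change of -0.67 ± 0.12 (SE, 95% interval -0.94 to -0.41) and an adjusted p of 0.153 in edgeR, rank 15 by p among 15361 genes. DESeq2 called it, with an adjusted p of 0.000380, and edgeR called it without IF+PBS replicate 1 (log2 fold change -0.69, adjusted p = 0.0151), where it called 472 genes.

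Mt3 read 17.6, 23.9 and 22.5 CPM in AL+PBS (21.3 ± 3.34, n = 3) and 26.4, 33.6 and 28.3 CPM in IF+PBS (29.4 ± 3.72, n = 3), without overlap. Its log2 fold change was 0.46 ± 0.15 (SE, 95% interval 0.14 to 0.79, adjusted p = 0.198, edgeR). Mt1 was 71.5, 122 and 135 CPM in IF+PBS against 78.3 to 88.0 CPM in AL+PBS, so that 2 mice lay above and 1 mouse below the whole AL+PBS group (log2 fold change 0.39 ± 0.19 SE, adjusted p = 0.322, edgeR). Without that mouse, IF+PBS replicate 1, Mt1 was called higher (log2 fold change 0.62, adjusted p = 0.00821, edgeR), in the same fit. Mt2 had a log2 fold change of 0.16 ± 0.19 (SE) and Mtf1 of -0.00 ± 0.10 (SE), both with overlap.

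Of the 5 genes 0 were called by edgeR in IF+PBS over AL+PBS, as were 0% of all genes tested. At an unadjusted p under 0.05 there were 2, Slc30a1 and Mt3, as there were 2623 of all 15361 genes tested, and DESeq2 called 1 of the 5 and 192 of 14460 genes. The same 2 genes had groups that did not overlap, as did 21.9% of all genes tested, and the median log2 fold change was 0.16 over the 5 genes and 0.01 over all genes. Marker levels differed between these groups too. Skeletal muscle markers, all 4 lower without overlap, summed to 89.1 to 196 CPM in AL+PBS and 13.9 to 62.6 CPM in IF+PBS, stroma markers, 4 of 5 lower, to 119 to 190.1 CPM and 55.6 to 100.4 CPM, and RPE markers, 2 of 6 higher, to 1447 to 1637 CPM and 1721 to 2207 CPM. Müller cell and astrocyte markers, 2 of 8 lower, summed to 4264 to 4783 CPM in AL+PBS and 4011 to 4099 CPM in IF+PBS, endothelial markers, 1 of 4 lower and 1 higher, to 181 to 192 CPM and 155 to 159 CPM, and erythrocyte markers, 3 of 5 lower, to 65.1 to 84.9 CPM and 41.8 to 57.3 CPM. Photoreceptor markers, 1 of 8 lower and 2 higher, summed to 48695 to 51634 CPM and 43684 to 48580 CPM, and inner retinal neuron markers, 0 of 7 without overlap, to 1189 to 1306 CPM and 1337 to 1443 CPM. The sums of macrophage and of neutrophil markers overlapped. Aqp4 averaged 197 CPM in AL+PBS and 134 CPM in IF+PBS and was the second nearest gene to Slc30a1 over the 12 libraries (Pearson correlation 0.948 of log2 CPM). Lens markers reached 171 CPM in AL+PBS replicate 2 and at most 3.62 CPM in the other 11 libraries. The part of these tissues in the level of Slc30a1 was not tested.

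Mt1 and Mt2 were then set against each other within a library, where depth and scaling cancel. Mt2 reads per Mt1 read were 0.441, 0.435 and 0.383 in AL+PBS (0.419 ± 0.0315, mean ± SD, n = 3) and 0.368, 0.353 and 0.352 in IF+PBS (0.358 ± 0.00913, n = 3). The ratio was 0.603, 0.633 and 0.795 in AL+NaIO3 (0.677 ± 0.103, n = 3) and 0.366, 0.372 and 0.373 in IF+NaIO3 (0.370 ± 0.00349, n = 3). All AL+NaIO3 mice stood above all others, and the 2 fasted groups overlapped. The 3 IF+PBS libraries, which spread from 71.5 to 135 CPM for Mt1, differed little in this ratio, and their Mt2 was spread in step.

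The two-sided exact permutation p was 0.1 for AL+NaIO3 against AL+PBS, for IF+NaIO3 against AL+NaIO3 and for IF+PBS against AL+PBS, the smallest that 3 against 3 mice can give, and 0.2 for IF+NaIO3 against IF+PBS, so no comparison of ratios could pass 0.05. By FPKM the order of the groups was the same, with means of 0.453 in AL+PBS, 0.386 in IF+PBS, 0.735 in AL+NaIO3 and 0.401 in IF+NaIO3. Exact runs shared by the transcripts of Mt1 and Mt2 were at most 20 bases long, and at most 27 bases for Mt1 and Mt3. Mt2 shared a run of 52 bases with the gene Gm61019 and of 33 bases with Pip5k1a, from which some of its reads could come.

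**Figure D3:**
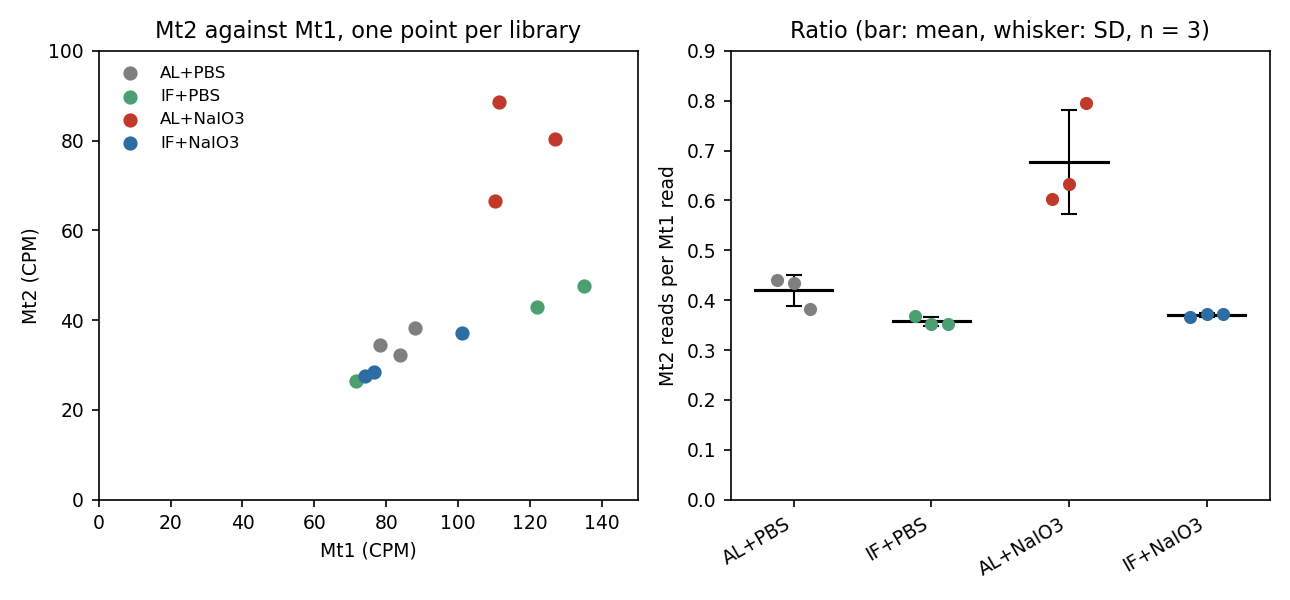
Left, Mt2 against Mt1 in CPM, with a point for each of the 12 libraries; right, Mt2 reads per Mt1 read in each library, with a bar for the group mean and whiskers for the SD (n = 3). The AL+NaIO3 points lie off the line of the others, with ratios between 0.603 and 0.795 against 0.352 to 0.441 in the other 9 libraries.

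The order of the groups differed between genes. By mean CPM it was AL+NaIO3, IF+PBS, IF+NaIO3, AL+PBS for Mt1, from high to low, with all neighbours overlapping. For Mt2 it was AL+NaIO3, IF+PBS, AL+PBS, IF+NaIO3, and only AL+NaIO3 stood clear of its neighbour. For Mt3 it was IF+PBS, IF+NaIO3, AL+PBS, AL+NaIO3, with all neighbours overlapping, and for Mtf1 it was AL+PBS, IF+PBS, IF+NaIO3, AL+NaIO3, likewise overlapping. For Slc30a1 it was AL+NaIO3, AL+PBS, IF+NaIO3, IF+PBS, where AL+NaIO3 and AL+PBS overlapped and the lower 2 groups were each clear of the group above. By FPKM the order was the same for Mt2, Mt3 and Slc30a1, whereas AL+PBS and IF+NaIO3 changed places for Mt1, and AL+PBS and IF+PBS for Mtf1.

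The genes most like Mt1 and Mt2 over the 12 libraries were named by Pearson correlation of log2 CPM with 15969 other genes, a description of points that share group, library and depth. Mt2 and Mt1 correlated at 0.789 with each other, which ranked Mt2 at 56 among genes for Mt1, and Mt1 at 446 for Mt2. Nearest to Mt2 were Pbxip1 (0.949), Cd244a (0.944), Arid5a (0.943), Psmb8 (0.941) and Kcne1l (0.939). Of these, Psmb8, a subunit of the immunoproteasome, averaged 7.12 CPM in AL+NaIO3 and 2.43 CPM in AL+PBS, and Pbxip1 averaged 149 and 75.6 CPM. Cd244a, a receptor of immune cells, had at most 1.09 CPM in any library. Nearest to Mt1 were 4933405L10Rik (0.963), Gadd45g (0.881), Ccdc114 (0.876), Ntpcr (0.875) and Rnd2 (0.872). Gadd45g, a stress-response gene, averaged 15.8 CPM in AL+NaIO3, 15.2 CPM in IF+PBS, 13.6 CPM in IF+NaIO3 and 12.2 CPM in AL+PBS. Of the genes named for either, those tested were not called by edgeR in a 6-library fit. 4933405L10Rik, at most 0.782 CPM in any library, was too low to be tested in the pairwise comparisons, and Cd244a in IF+PBS over AL+PBS and in IF+NaIO3 over IF+PBS.

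Zinc transporters were then counted from lists. Of 9 other ZnT (Slc30a) genes, most of which move zinc out of the cytosol, 8 were tested and 0 were called by edgeR in any pairwise comparison. Of all genes tested, edgeR called 0.0769% in AL+NaIO3 over AL+PBS and 0.0383% in IF+NaIO3 over AL+NaIO3. It called 0% in IF+PBS over AL+PBS and in IF+NaIO3 over IF+PBS. With so few calls, 0 in a short list does not show that its genes did not respond. Slc30a8, the zinc transporter of insulin granules, had at most 4 counts in a library and was not tested. The medians of the log2 fold changes were 0.09 in AL+NaIO3 over AL+PBS, -0.07 in IF+NaIO3 over AL+NaIO3, -0.15 in IF+PBS over AL+PBS and 0.06 in IF+NaIO3 over IF+PBS, against 0.01, -0.01, 0.01 and 0.00 over all genes tested. In IF+PBS over AL+PBS 3 of the 8 had groups that did not overlap, all lower, against 21.9% of all genes in either direction. These were named after their values were seen: Slc30a4 (log2 fold change -0.35), Slc30a10 (-0.43), whose protein mainly exports manganese, and Slc30a9 (-0.15), whose protein moves zinc out of mitochondria, with adjusted p-values between 0.210 and 0.360 in edgeR. The largest log2 fold change in IF+NaIO3 over AL+NaIO3 was -0.37 ± 0.51 (SE) for Slc30a2, at an adjusted p of 0.756 in edgeR. It was -0.14 without AL+NaIO3 replicate 3, -0.24 without replicate 2 and -0.67 without replicate 1.

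Of 14 ZIP (Slc39a) genes, which bring zinc into the cytosol, 13 were tested and 0 were called by edgeR in any pairwise comparison. Of all genes tested at most 0.0769% were called. Without overlap, 2 were higher and 3 lower in AL+NaIO3 over AL+PBS, against 18.3% of all genes either way. In IF+NaIO3 over AL+NaIO3 0 were higher and 3 lower (18.9% of all genes). In IF+PBS over AL+PBS 1 was higher and 0 lower (21.9%), and in IF+NaIO3 over IF+PBS 1 was higher and 2 lower (20.9%). The medians were 0.10, -0.05, -0.13 and -0.01 in the same order. Slc39a8, the gene of ZIP8, had the largest log2 fold change in IF+NaIO3 over AL+NaIO3. It read 2.57, 3.98 and 4.60 CPM in AL+NaIO3 and 2.04, 1.68 and 1.98 CPM in IF+NaIO3, groups that did not overlap (log2 fold change -0.98 ± 0.36 SE, adjusted p = 0.369, edgeR). In AL+PBS it read 1.34, 3.07 and 2.43 CPM, which overlapped with AL+NaIO3. Slc39a2, the gene of ZIP2, was singled out after its values were seen, as the importer with the largest difference in IF+PBS over AL+PBS. It read 11.8, 10.2 and 10.7 CPM in IF+PBS and 6.66, 6.30 and 5.32 CPM in AL+PBS, opposite in direction to Slc30a1 in the same mice, with a log2 fold change of 0.84 ± 0.17 (SE, adjusted p = 0.170, edgeR).

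**Figure D4:**
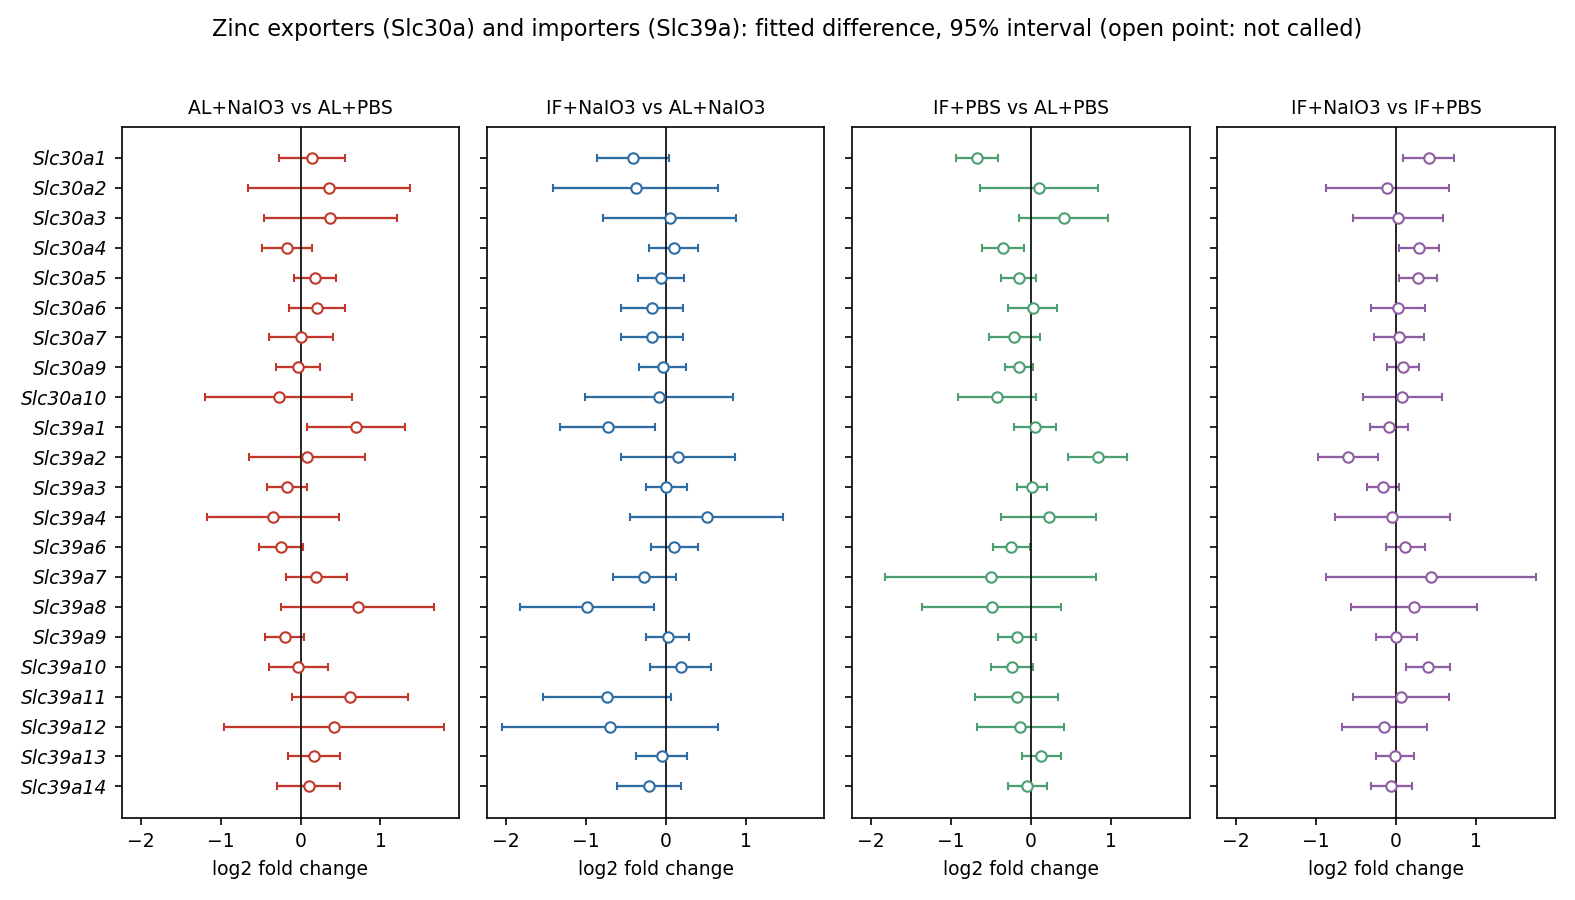
Fitted log2 fold change (horizontal axis, the same scale in all panels) of the 22 zinc transporter genes tested in all 4 pairwise comparisons, with a panel for each comparison, points for the edgeR estimate and whiskers for its 95% interval. All points are open, since edgeR called no transporter in these 6-library fits, which called at most 0.0769% of all genes. In IF+PBS over AL+PBS Slc30a1 lies at -0.67 and Slc39a2 at 0.84.

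Further lists held genes that share an inducer or a metal with the metallothioneins. Slc39a10, Gclc and Slc40a1 stand on 2 lists each. Of 7 other genes linked to MTF1 or to metal response, 0 were called by edgeR in any pairwise comparison, where at most 0.0769% of all genes were called. The medians were 0.08 in AL+NaIO3 over AL+PBS and -0.06 in IF+NaIO3 over AL+NaIO3. Pgf, a growth factor for vessels, read 4.17, 4.37 and 8.21 CPM in AL+NaIO3 and 2.66, 1.89 and 1.38 CPM in AL+PBS, which did not overlap (log2 fold change 1.51 ± 0.41 SE, adjusted p = 0.286, edgeR). In IF+NaIO3 over AL+NaIO3 its log2 fold change was -0.80 ± 0.43 (SE, adjusted p = 0.508, edgeR), with overlap, and -0.40 without AL+NaIO3 replicate 3.

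Of 9 copper genes and 11 iron genes, 0 were called by edgeR in a 6-library fit, where at most 0.0769% of all genes were called. Cp, the gene of the copper-bearing ferroxidase ceruloplasmin, read 269, 284 and 546 CPM in AL+NaIO3 and 150.5, 185 and 155 CPM in AL+PBS, without overlap (log2 fold change 1.18 ± 0.28 SE, adjusted p = 0.259, edgeR). It was 155, 183 and 163 CPM in IF+NaIO3 (log2 fold change -1.15 ± 0.28 SE against AL+NaIO3, adjusted p = 0.226, edgeR), and the 12-library fit called it in both comparisons. DESeq2 called Cp lower in IF+NaIO3 over AL+NaIO3 (adjusted p = 0.00242), where it called 478 of 15623 genes. Trf, the gene of the iron carrier transferrin, was 989 CPM in AL+NaIO3 replicate 3 against 347 and 297 CPM in replicates 1 and 2. Its log2 fold change in IF+NaIO3 over AL+NaIO3 was -1.04 ± 0.47 (SE, adjusted p = 0.446, edgeR), and -0.28 without that library. For Cp the same difference was -0.74 without replicate 3, where it passed (adjusted p = 0.0480, edgeR), as did 75 of 15740 genes.

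Of 10 glucocorticoid-responsive genes 0 were called by edgeR in a 6-library fit, where at most 0.0769% of all genes were called. Their medians were 0.10 in AL+NaIO3 over AL+PBS and 0.05 in IF+NaIO3 over AL+NaIO3. The largest difference in the second was Zbtb16 (log2 fold change -0.83 ± 0.55 SE, adjusted p = 0.582, edgeR). It rested on AL+NaIO3 replicate 3, at 11.6 CPM against 3.50 and 4.44 CPM in replicates 1 and 2, and was -0.11 without that library. Of 7 NRF2 target genes, which answer to oxidants, 0 were called by edgeR in a 6-library fit, against the same share of all genes. Their medians were 0.26 and -0.38. Hmox1, heme oxygenase 1, had the largest difference, with 7.12, 5.65 and 20.0 CPM in AL+NaIO3 and 2.55, 3.00 and 1.42 CPM in IF+NaIO3 (log2 fold change -2.25 ± 0.54 SE, adjusted p = 0.229, edgeR). The 12-library fit called it lower (log2 fold change -2.23, adjusted p = 0.0328, edgeR). Without AL+NaIO3 replicate 3 it was -1.46 in the pairwise fit (adjusted p = 0.190, edgeR), and it was not called in the 12-library fit less that library either (adjusted p = 0.0633, edgeR). Over all alternatives Hmox1 was called in 2 of 14, with adjusted p-values between 0.00168 and 0.701 (edgeR or DESeq2). In AL+PBS it read 4.03, 2.64 and 3.55 CPM, lower than every AL+NaIO3 mouse.

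The STAT3 and acute-phase genes, which answer to inflammatory cytokines, had 2 of 8 tested members called in each of the comparisons that hold AL+NaIO3, where 0.0769% and 0.0383% of all genes tested were called. No other of these lists had a called member in an edgeR fit of all 6 libraries compared, whereas the 12-library fit called Cp and Hmox1. In the STAT3 list that fit, which called 1.11% and 1.19% of all genes in these comparisons, called 5 of 8 higher in AL+NaIO3 over AL+PBS (Stat3, Socs3, Osmr, Cebpd and Lcn2) and 6 of 8 lower in IF+NaIO3 over AL+NaIO3 (the same 5 and Cebpb). Their median log2 fold change was 2.02 in AL+NaIO3 over AL+PBS and -2.20 in IF+NaIO3 over AL+NaIO3. Lcn2, lipocalin 2, an acute-phase protein, read 53.2, 37.1 and 88.9 CPM in AL+NaIO3, 3.75 to 4.26 CPM in AL+PBS and 3.64 to 5.10 CPM in IF+NaIO3, with log2 fold changes of 3.90 ± 0.33 and -3.77 ± 0.34 (SE). Cebpd, a transcription factor of the acute phase, read 62.4, 66.9 and 103 CPM in AL+NaIO3, 9.45 to 12.2 CPM in AL+PBS and 11.7 to 14.1 CPM in IF+NaIO3, with log2 fold changes of 2.84 ± 0.23 and -2.56 ± 0.22 (SE). Adjusted p-values of both genes were 0.0186 in the first comparison and 0.0143 in the second, by edgeR. In the first, both calls were lost when any AL+PBS library was left out (adjusted p between 0.176 and 0.206), and in the second when any IF+NaIO3 library was (between 0.124 and 0.217). Lcn2 was also lost without AL+NaIO3 replicate 1 in the second (adjusted p = 0.0551, edgeR), and Cebpd without replicate 2 (adjusted p = 0.0573). Mt2 had differences of the same signs and smaller size (1.18 and -1.35), and all of these values share the AL+NaIO3 libraries. These lists too were chosen with earlier results on these libraries known.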

How the data were processed

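Members and gene lists were chosen with earlier results of these data known. RNA was poly-A selected and libraries were made with a stranded kit. The authors deposited read counts per gene, whole numbers without normalization. The submitters' processing notes name HISAT2, StringTie, DESeq2, edgeR and the build GRCm39, whereas the coordinates in the count table match GRCm38. The counting program, annotation and use of strand are not given in the sources used here. FPKM values deposited by the authors divide counts by gene length and library size and were used to compare levels between genes. A table of the authors' own comparison of IF+NaIO3 with AL+NaIO3 (fold changes and p-values) was not used, and 0 per-sample columns were left unassigned. Groups came from the sample labels.

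Counts were tested in R 4.3.3 with edgeR 4.0.16 (TMM, filterByExpr, quasi-likelihood test) on the 6 libraries compared, or on all 12 for the interaction, and p-values were adjusted by Benjamini-Hochberg over all genes tested. Calls required an adjusted p below 0.05 and, in pairwise comparisons, a fold change of 1.5 or more. The labels do not say more than that the 3 libraries of a group are separate samples, so p-values measure the spread between them. The fit was also run on simulated counts, whose outcome is not reported here, so no call rests on it. Alternatives were DESeq2 1.42.0, other scalings and filters, the 12 libraries together, a replicate block and leaving out each library. Pearson correlations used log2 CPM with a prior count of 2. Ratios were compared by exact permutation. No pair of libraries within a group was a duplicate, and pairs across groups were not checked. Named genes were the 5 members, list genes that were called or had the largest difference in IF+NaIO3 over AL+NaIO3, and the 5 genes nearest to Mt1 and to Mt2. Slc30a4, Slc30a9, Slc30a10, Slc39a2, Aqp4 and the single marker genes were named after their values were seen. Promoters came from RefSeq (5 of 5 members matched). Proteins were not analysed here.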

Additional observations from a re-analysis of the deposited data

How the results depend on the processing

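The count of called genes among the 5 moved with the processing, while directions of the called differences did not. In AL+NaIO3 over AL+PBS (1 called, Mt2) it was 0 with library totals alone, 0 with the replicate block (Mt2 log2 fold change 1.17, adjusted p = 0.0640) and 0 to 1 when a library was left out. In IF+NaIO3 over AL+NaIO3 (0 called) it was 1 with DESeq2, with no filter, with the 12 libraries together and with these less AL+NaIO3 replicate 3, a setting chosen after seeing the data, and 0 to 1 when a library was left out. Of all genes, 478 of 15623 were called with DESeq2, 16 of 18450 with no filter and 75 of 15740 without AL+NaIO3 replicate 3. The 12 libraries together called 190 of 15970, and 122 of 16105 less that library. In IF+PBS over AL+PBS (0 called) it was 1 with DESeq2 (Slc30a1) and 0 to 2 when a library was left out (Mt1 and Slc30a1 without IF+PBS replicate 1), and in IF+NaIO3 over IF+PBS it was 0 to 1 (Mt1, again without IF+PBS replicate 1). For the interaction (0 called) it was 1 with DESeq2 and 0 to 1 when a library was left out (Mt2 without IF+PBS replicate 1 or AL+NaIO3 replicate 1). In these settings DESeq2 called 217 of 15312 genes. edgeR called 11 of 16234 genes without IF+PBS replicate 1 and 366 of 16207 without AL+NaIO3 replicate 1. The cause of these moves in the count of called genes was not tested. Mt2 was called in 8 of 14 alternatives in AL+NaIO3 over AL+PBS (adjusted p between 3.40e-09 and 0.408) and in 3 of 18 for the interaction (0.000337 to 0.327).

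Log2 fold changes that changed sign were all small. When a library was left out, Mt3 in AL+NaIO3 over AL+PBS was -0.373 to 0.00826, Slc30a1 -0.0281 to 0.276, and with the 12 libraries less AL+NaIO3 replicate 3 they were 0.0157 and -0.0208. Mt2 in IF+PBS over AL+PBS was -0.00743 to 0.370 and Mtf1 -0.104 to 0.0579, with Mtf1 at 0.0130 with library totals alone and 0.00253 with no filter. Mtf1 in IF+NaIO3 over IF+PBS was -0.114 to 0.0410, and the interaction of Mt3 was -0.366 to 0.0420. Library totals alone moved the median log2 fold change of all genes to 0.09, -0.13, 0.02 and -0.06 in the 4 pairwise comparisons. Same-numbered libraries had correlations between -0.101 and 0.138 in their deviations. With 3 libraries in a group these cannot decide whether the numbers pair the mice. The replicate block changed no other call among the 5 genes. The 5 genes had between 389 and 4349 counts in a library, Slc30a1 the fewest, and the share of counting error in the spread was not tested.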
